A study of Homo sapiens with 24 samples.

Results

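The 32 genes described here encode the core and linker histones that are made during DNA replication: 5 genes of histone H1, 8 of H2A, 10 of H2B, 5 of H3 and 4 of H4. They were chosen by name alone, as protein-coding genes of the deposited count table matched by their symbol in the annotation. That symbol is one of H1-1 to H1-5 or begins with H2AC, H2BC, H3C or H4C followed by a number. These genes are 32 of the 19086 protein-coding genes of the table. The annotation used for matching (GENCODE on hg19) holds 63 such symbols, and the 31 whose annotated identifier was not found in the table are not analysed here. On hg19, 22 of the 32 genes lie on chromosome 6 between positions 25723625 and 27860884, 9 on chromosome 1 and 1, H4C16, on chromosome 12.

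Replication-dependent histone mRNAs are known for ending without a poly(A) tail. Their 3′ end is a conserved stem-loop that is bound by SLBP, the stem-loop binding protein, which carries the mRNA through 3′ end cleavage, export, translation and decay. When DNA synthesis stops, these mRNAs are known to be degraded quickly, in a process that needs SLBP, the helicase UPF1, uridylation of the 3′ end and the exonuclease ERI1. Some histone genes also produce longer transcripts that read past the stem-loop and are polyadenylated.

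The cells were labelled A2058, a human melanoma line, that received either a scrambled siRNA (siCTRL) or one directed at LSM14A (siLSM14A), an RNA-binding protein of cytoplasmic granules and the human counterpart of yeast Scd6. Each was left untreated (NT) or treated with hydroxyurea (HU), an inhibitor of ribonucleotide reductase that depletes nucleotides and stalls replication forks. Total RNA and RNA of heavy polysomes, the mRNAs loaded with many ribosomes, were sequenced from 3 replicates of each of the 4 conditions, which gives 24 libraries. All groups are of 1 cell line and the depletion was by transient siRNA. Nothing in the labels says that replicates were separate cultures, so the p-values measure the spread between these samples. All libraries were made after selection for poly(A)+ RNA. The counts therefore describe the polyadenylated forms of these mRNAs, or what was carried through the selection.

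The stem-loop that defines the family was found in the reference sequence downstream of the stop codon in all 32 genes, 22 to 57 bases after it, with a median of 36. Among all 18816 protein-coding genes with an annotated stop codon it was found within 300 bases after the stop in 39, or 0.207%, of which 7 are not members. These 7 include the histone genes H1-6, H2AX, H3-4, HIST1H4B and HIST2H2AA3. The search asked, on the gene's own strand, for the 16-base histone pattern of GG, 3 pyrimidines, TT, a pyrimidine, T, any base but G, A, 3 purines and CC, without requiring the arms to pair. 5 forms of it occurred. Because this is the element that the decay machinery reads, 1 gene of each form is given with the 5 bases on either side, from the hg19 sequence, written as DNA from 5′ to 3′, with the stem-loop in capitals. The stretches lie at chr6:26055967-26055992 on the minus strand (H1-2), chr6:27114140-27114165 on the minus strand (H2BC12), chr12:14923653-14923678 on the minus strand (H4C16), chr6:27101289-27101314 on the plus strand (H2AC11) and chr1:149858936-149858961 on the plus strand (H2AC20), in each case downstream of the stop codon.
H1-2: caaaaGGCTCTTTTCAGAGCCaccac
H2BC12: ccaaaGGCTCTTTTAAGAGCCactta
H4C16: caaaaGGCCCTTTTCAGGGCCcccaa
H2AC11: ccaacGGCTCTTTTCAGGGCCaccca
H2AC20: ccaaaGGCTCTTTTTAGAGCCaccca
The form of H1-2 was shared by 20 genes, that of H2BC12 by 6 and that of H4C16 by all 4 H4 genes, whereas H2AC11 and H2AC20 each had a form of their own. The H3 genes all had the form of H1-2, which other types also had. H4 was the only type whose genes all shared a form found in no other type. In 12 of the 32 genes at least 1 annotated transcript ends more than 20 bases past the stem-loop, and in 11 of these 12 such a transcript carries AATAAA or ATTAAA in its last 40 bases. The exception was H4C16. In the other 20 genes the annotated transcripts end within 6 bases of the stem-loop.

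The library totals ran from 24789280 to 40645263 counts for total RNA and from 28776634 to 44897501 for polysomal RNA. LSM14A itself fell from 84.3 ± 2.33 to 7.52 ± 0.708 CPM (SD, n = 3; CPM is the count scaled to the size of the library) in total RNA of NT cells on depletion, and from 85.9 ± 5.08 to 6.81 ± 0.794 CPM in HU cells. The melanocyte lineage genes SOX10 and PMEL stood at 550 CPM or more and at 306 CPM or more in every total RNA library, whereas MLANA (5.48 to 10.2 CPM) and TYRP1 (3.92 to 5.48 CPM) of the same lineage were low. Of the 7 measured markers of epithelial, immune and muscle cells, KRT5 was at 0 in all libraries and KRT14, a keratin, was the highest with 0.997 to 2.83 CPM in total RNA.

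Detection of the histone genes was uneven. In all 24 libraries 12 of the 32 genes had 10 or more counts: 6 H2B genes, 4 H2A genes, H1-2 and H4C8. A further 8 genes reached 10 counts in some libraries only, and 8 had counts but never 10. The testis-expressed H2AC1 and H2BC1, the linker histone gene H1-3 and the H3 gene H3C14 were at 0 in all 24 libraries. For H2AC1, H2BC1 and H1-3 this allows a level of up to 0.00365 CPM over the libraries together (3 counts of their sum, counting error only). H3C14 and H3C15 are near-identical copies, and none of their 100-base windows is unique in the genome, so reads of that length cannot be assigned to either. No such limit is therefore given for H3C14.

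H2BC12, which encodes an H2B, was the most abundant at 94.6 CPM per kb of exon on average over the 24 libraries. The linker histone gene H1-2 followed at 32.01, and then H2AC6 at 13.9, H2BC5 at 9.73, H2AC11 at 9.60, H2AC25 at 5.91, H2BC11 at 3.77 and H2BC21 at 2.41 CPM per kb. Thus the H2A and H2B genes and H1-2 filled the top of the order. The order holds only genes found in the table, so it does not rank the histone types as a whole. Of the annotated symbols these are 5 of 5 for H1, 8 of 16 for H2A, 10 of 16 for H2B, 5 of 13 for H3 and 4 of 13 for H4. The highest H3 gene was H3C4 at 1.03 and the highest H4 gene H4C8 at 0.677 CPM per kb. H2BC12, H2AC6 and H1-2 together took 65.8% of all counts of the 32 genes in total RNA.

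**Figure D1:**
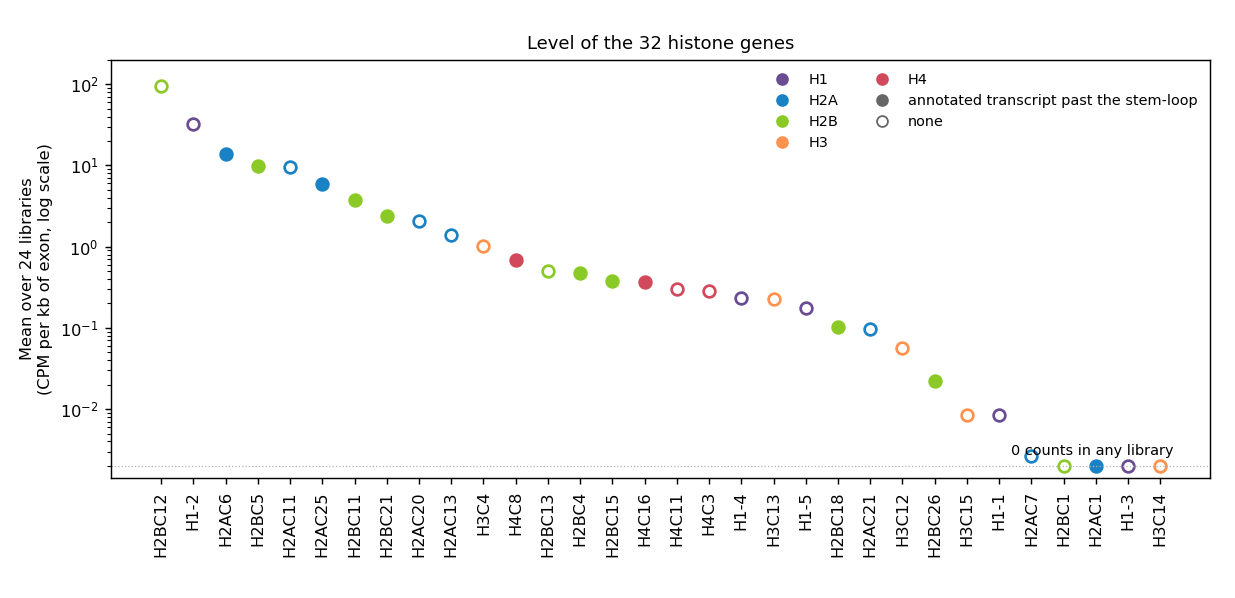
Mean level of the 32 histone genes over 24 libraries, in CPM per kb of exon on a log axis, coloured by histone type; filled points have an annotated transcript past the stem-loop, and genes without a count are drawn on the dotted line. Filled and open points are mixed along the order, and the highest points, H2BC12 and H1-2, are open.

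The annotated 3′ end did not sort the detected genes completely. Of the 12 genes with an annotated transcript past the stem-loop, 8 had 10 or more counts in every library and 1 (H2AC1) was at 0. Of the 20 genes without one, 4 had 10 or more counts in every library, namely H1-2, H2AC11, H2AC20 and H2BC12, and 3 were at 0. No polyadenylated form of H2BC12 or H1-2 is annotated, yet they were the highest of all by length. That length covers the exons of all annotated transcripts, 495 bases in H2BC12, 731 in H1-2 and 1668 in H2AC6. Without scaling by length H2BC12 was still highest at 46.8 CPM, but H1-2 (23.4 CPM) and H2AC6 (23.2 CPM) were level. What part of the reads of H2BC12 and H1-2 came from tailed and what part from untailed mRNA was not tested.

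Some values carry limits of assignment. In 21 of the 32 genes every 100-base window of the exons is unique in the genome, and in 6 fewer than 50% of the windows are. H2BC12 has 77.5% unique windows and H2AC20 87.3%, whereas H2AC13 has 41.2%, so the level of H2AC13 is uncertain. In the annotation used here the exon of H3C4 lies to 96.6%, and that of H2AC7 to 85.3%, within another gene on the same strand (ENSG00000282988). The authors counted with another Gencode release, and how reads in the overlap were assigned was not tested. H3C4 had 8 to 31 counts in every library.

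To examine whether the mRNAs left after poly(A) selection were lower with HU, HU was compared with NT in total RNA of siCTRL cells. No member was called lower. H2BC12 stood at 47.2, 47.7 and 47.7 CPM in the NT libraries and at 46.3, 43.5 and 48.0 CPM in the HU libraries. H2AC6 had 23.8, 24.8 and 22.8 CPM in NT and 20.6, 22.9 and 23.1 CPM in HU cells, and H1-2 had 19.6, 20.7 and 18.3 against 20.3, 20.9 and 19.6 CPM. The groups overlapped for all 3 genes. Of the 16 members that passed the filter on low counts, 0 were called at an adjusted p below 0.05 (edgeR quasi-likelihood test, Benjamini-Hochberg over all genes tested), beside 0.0% of the 12506 genes tested. None of the 16 had an unadjusted p below 0.05, where 180 genes of the 12506 did, and DESeq2 also called 0 members. Since edgeR called no gene of the table, the count says little about histone genes in particular, and the intervals carry the result. They cover only the mRNA that came through poly(A) selection, and decay of histone mRNAs lost in that selection was not tested. In these bulk libraries fewer cells in S phase and less histone mRNA per cell cannot be told apart.

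The intervals of the abundant members were narrow. The log2 change of H2BC12 was -0.05 with a 95% interval of -0.18 to 0.08, which is 96.8% of the NT level with a range of 88.6% to 106%. For H2AC6 it was -0.10 (-0.26 to 0.07), for H1-2 0.06 (-0.11 to 0.22) and for H2AC25, an H2A gene on chromosome 1, -0.09 (-0.29 to 0.12). Over the 16 members the changes ran from -0.40 to 0.07, 10 below 0 and 6 above, with a median of -0.07 beside 0.00 for all genes tested. In all 16 the interval stayed above a log2 change of -1, although only just for H2BC13 (-0.99) and H2AC20 (-0.98), and in 8 it stayed above -0.5. The smallest p belonged to H2BC11, with 5.14 ± 0.497 CPM in NT and 4.30 ± 0.413 CPM in HU cells (SD, n = 3), a log2 change of -0.26 ± 0.13 (SE; unadjusted p = 0.078 in edgeR). The next was H2AC20 at -0.40 ± 0.26. H2AC11 had 5.30, 7.48 and 6.31 CPM in NT and 5.99, 5.95 and 6.13 CPM in HU cells, with the HU values inside the NT range. On the other side, H1-2 and H2BC21 had the smallest p among members above 0, at 0.06 ± 0.08 and 0.07 ± 0.15.

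In siLSM14A cells the total RNA values were as close. H2BC12 had 50.3, 49.2 and 47.2 CPM in the NT libraries and 53.5, 47.0 and 53.7 CPM in the HU libraries, a log2 change of 0.07 (-0.08 to 0.21). H1-2 changed by -0.01 (-0.16 to 0.15) and H2AC6 by -0.04 (-0.24 to 0.16). 0 of 15 members tested were called, beside 0.0% of 12497 genes, and 0 of the 15 reached an unadjusted p of 0.05, where 650 genes did. DESeq2 called 0 as well. The median of the members was -0.03 beside 0.00 over all genes. The interval stayed above -1 in 14 of 15, the exception being H3C4 (-0.41, -1.23 to 0.40), and above -0.5 in 11. The smallest p were those of H2AC11 (-0.14 ± 0.11) and H3C4 (-0.41 ± 0.38) below 0, and of H2AC13 (0.35 ± 0.27) and H2AC25 (0.12 ± 0.11) above it.

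Whether LSM14A depletion altered the HU response was tested by the difference between both responses. In total RNA 0 of 17 members were called, beside 0.0% of 12666 genes, and 0 of the 17 had an unadjusted p below 0.05, with 367 genes over all. DESeq2 called 0. The differences ranged from -0.41 to 0.80 on the log2 scale, and their intervals reached from -1.57 to 2.08. The smallest p were those of H2BC11 (0.30 ± 0.18) and H2AC25 (0.21 ± 0.14) above 0 and of H2BC21 (-0.19 ± 0.23) and H4C16 (-0.36 ± 0.45) below it. Such widths leave room for differences of more than a log2 unit in the low members.

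The summed level of the 32 genes was 140 ± 5.14 CPM in siCTRL NT, 136 ± 1.51 in siCTRL HU, 141 ± 3.96 in siLSM14A NT and 143 ± 1.77 CPM in siLSM14A HU total RNA (SD, n = 3). The single libraries lay between 134 and 146 CPM. In siCTRL cells the NT libraries had 137.5, 146.3 and 137.3 CPM and the HU libraries 135.6, 134.4 and 137.4 CPM. Only the highest HU value thus reached the NT range. In siLSM14A cells the HU libraries, at 141.7, 141.4 and 144.6 CPM, lay within the NT range of 137.5 to 145.4 CPM. These sums were not tested.

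**Figure D2:**
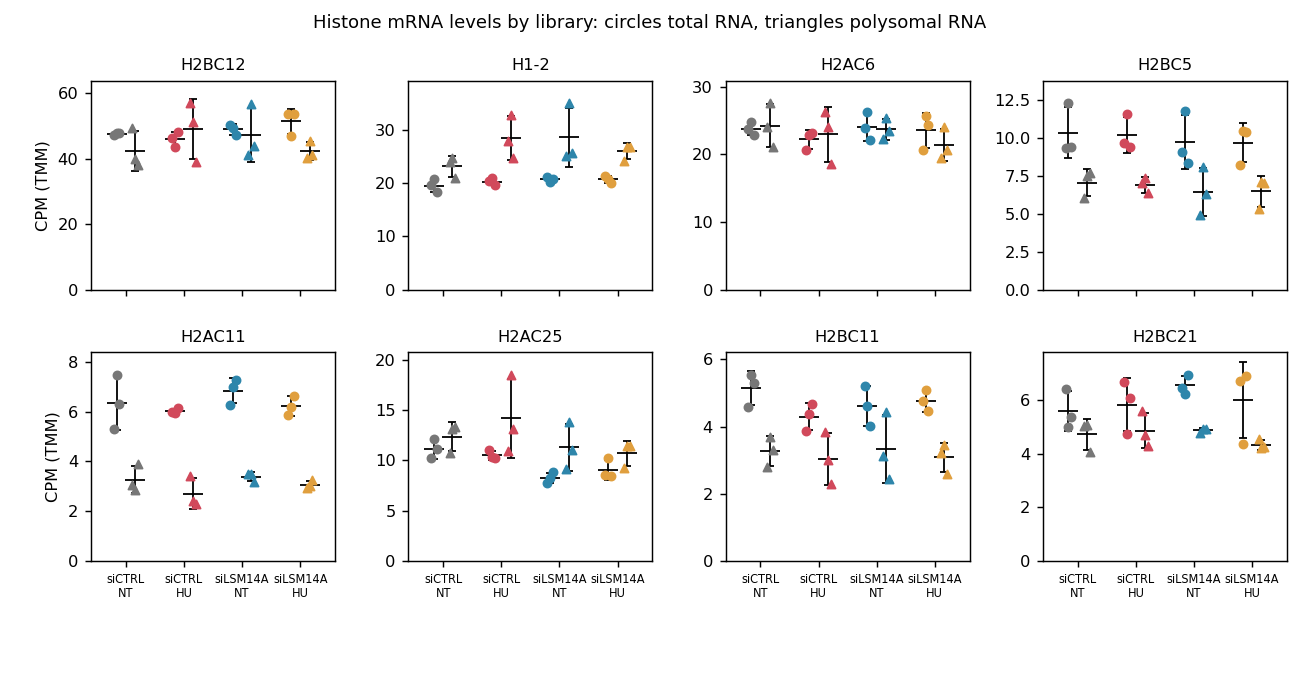
CPM per library for the 8 histone genes with the highest level per kb, by condition; circles are total RNA, triangles polysomal RNA, and bars the mean with SD of 3 libraries. The HU points of H2BC12 in siCTRL total RNA, 43.5 to 48.0 CPM, lie across its NT points of 47.2 to 47.7, and H2AC11 is lower in polysomal than in total RNA in all conditions.

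In polysomal RNA the spread between replicates was larger, and the HU comparison again called none. H2BC12 had 49.2, 39.9 and 37.9 CPM in siCTRL NT and 56.8, 51.2 and 39.0 CPM in siCTRL HU polysomes, a log2 change of 0.21 (-0.21 to 0.62). H1-2 had 23.9, 24.6 and 20.9 CPM in NT and 27.8, 32.8 and 24.6 CPM in HU polysomes, a change of 0.29 (-0.10 to 0.68) with the smallest p among the members (0.128). 2 of the 3 HU values of H1-2 were above all NT values. Among members below 0 the smallest p were those of H2BC4 (-0.49 ± 0.43) and H2AC11 (-0.27 ± 0.26). 0 of 15 members were called in edgeR, 0 in DESeq2 and 0 at an unadjusted p below 0.05, beside 0.0% of 12315 genes called and 259 at that unadjusted p.

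In siLSM14A polysomes 0 of 15 members were called on HU, beside 0.0% of 12290 genes, with 0 at an unadjusted p below 0.05 (107 genes over all) and 0 in DESeq2. The median of the members was -0.10 beside 0.01 for all genes, after -0.03 beside -0.01 in siCTRL cells. H2BC12 changed by -0.15 (-0.52 to 0.21) and H1-2 by -0.14 (-0.53 to 0.26). These 2 genes thus had changes of opposite sign under the 2 siRNAs, but the difference between the responses was not called for either, at -0.33 (-0.86 to 0.20) for H2BC12 and -0.40 (-0.90 to 0.10) for H1-2. On the other side of 0 the smallest p of that difference were those of H2AC13 (1.19 ± 0.89) and H4C8 (0.52 ± 0.45). Over all members, 0 of 15 differences were called in polysomal RNA, beside 0.0% of 12515 genes, with 0 members and 134 genes at an unadjusted p below 0.05 and 0 members in DESeq2. In the siLSM14A cells H2AC6 was at -0.15 ± 0.16, H2AC13 at 0.71 ± 0.51 and H4C8 at 0.28 ± 0.29. Here the interval stayed above -1 in 13 of 15 members and above -0.5 in 2.

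**Figure D3:**
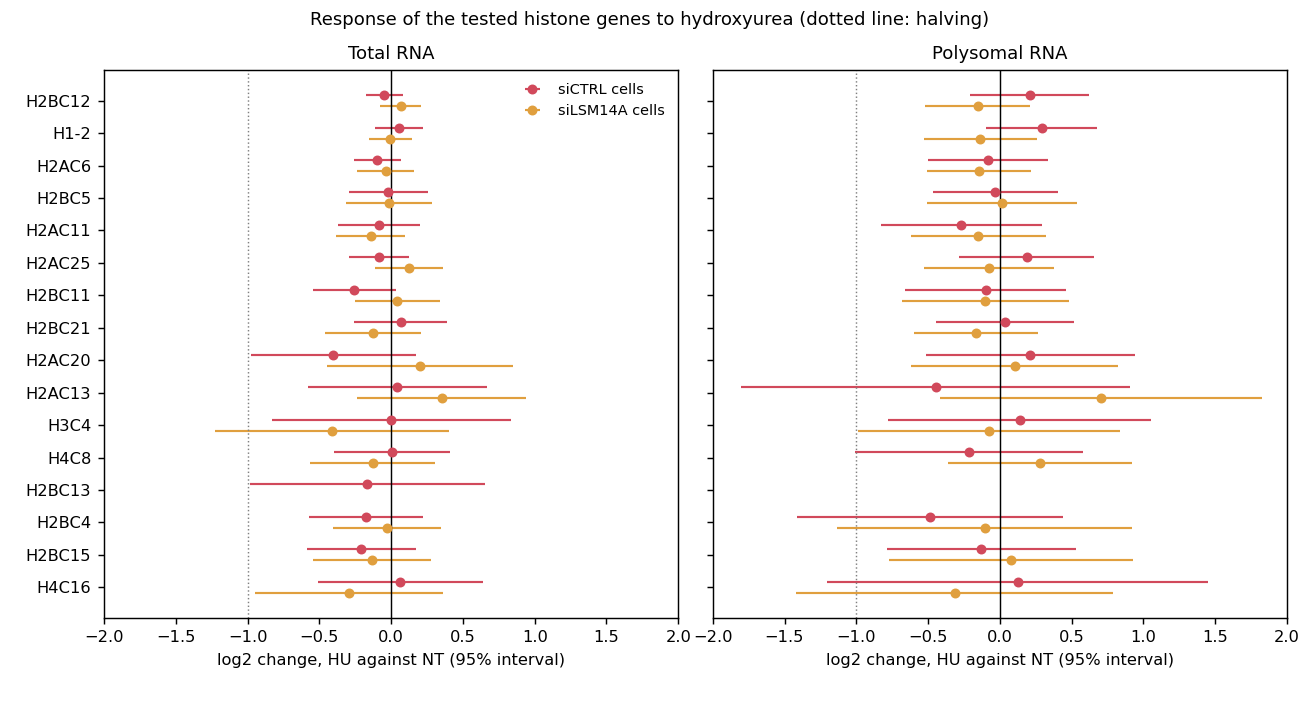
log2 change of each tested histone gene on HU with its 95% interval (edgeR), in total RNA on the left and polysomal RNA on the right, for siCTRL and siLSM14A cells; genes are ordered by level, and the dotted line marks a change of -1. All intervals include 0, and in total RNA only that of H3C4 in siLSM14A cells crosses the dotted line.

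The ratio of polysomal to total RNA, called translation efficiency (TE), was compared by an interaction term over both kinds of library. In siCTRL cells HU changed TE in 0 of 16 members, beside 0.0% of 12693 genes, and in siLSM14A cells in 0 of 15, beside 0.0% of 12660 genes. No member reached an unadjusted p of 0.05 in either, where 293 and 179 genes did, and DESeq2 called 0 in both. The median change over the members was 0.04 and -0.05 on the log2 scale, beside -0.01 and 0.00 over all genes. H1-2 had log2 ratios of polysomal to total CPM of 0.29, 0.25 and 0.19 in siCTRL NT and of 0.46, 0.65 and 0.32 in siCTRL HU cells. The HU values lay above the NT values, but the fitted change, 0.24 ± 0.18 (edgeR unadjusted p = 0.194), was not called. H2BC12 had 0.06, -0.26 and -0.33 in siCTRL NT and 0.30, 0.23 and -0.30 in siCTRL HU cells, which overlapped. Among the other members the smallest p in siCTRL cells were those of H2AC20 (0.62 ± 0.42) above 0 and of H2BC4 (-0.30 ± 0.42) and H2BC13 below it. In siLSM14A cells they were those of H2BC12 (-0.23 ± 0.17), H4C8 (0.40 ± 0.31), H2AC25 (-0.22 ± 0.22) and H2AC13 (0.33 ± 0.57). The largest change, -1.21 ± 0.69 for H2BC13 in siCTRL cells, rested on 1 to 12 counts in polysomal RNA. The difference of the TE responses between the siRNAs was called in 0 of 18 members, beside 0.0% of 12855 genes, with 0 members and 244 genes at an unadjusted p below 0.05 and 0 members in DESeq2. H2BC12 had -0.49 ± 0.26 there and H4C8 0.63 ± 0.49. H2BC18 (-2.51 ± 1.28) and H1-4 (1.64 ± 1.26) had few counts and the widest errors.

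Depletion of LSM14A itself was not followed by a called change of a histone gene in the edgeR test. In NT cells 0 of 16 members were called in total RNA, beside 0.566% of 12544 genes, and in HU cells 0 of 16, beside 0.802% of 12475. At an unadjusted p below 0.05 there was 1 member in each, with 1349 and 1065 genes over all. In NT cells this was H2AC25, which had 10.2, 12.1 and 11.1 CPM in siCTRL and 7.78, 8.20 and 8.81 CPM in siLSM14A cells. All siLSM14A values lay under all siCTRL values, and the log2 change was -0.43 ± 0.10 (edgeR adjusted p = 0.118). DESeq2 called it, at -0.43 with an adjusted p of 0.030. In HU cells H2AC25 was at -0.22 ± 0.10 (edgeR adjusted p = 0.595), and DESeq2 called 0 members.

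In HU cells the member was H2BC12, with 46.3, 43.5 and 48.0 CPM in siCTRL and 53.5, 47.0 and 53.7 CPM in siLSM14A total RNA. The log2 change was 0.15 ± 0.07 (edgeR adjusted p = 0.559). Same-numbered libraries deviated together in this comparison. In the edgeR fit that took the pairs as a block, H2BC12 was called at 0.15 with an adjusted p of 0.0395, and without the block by neither edgeR nor DESeq2. With GC content corrected beside the block it was not called (adjusted p = 0.108). In polysomal RNA 0 of 15 members were called on depletion in NT cells, beside 0.0162% of 12342 genes, and 0 of 15 in HU cells, beside 0.0653% of 12256, with 0 members at an unadjusted p below 0.05 (242 and 611 genes over all) and 0 in DESeq2. TE on depletion was called in 0 of 17 members in NT cells, beside 0.0% of 12757 genes, and in 0 of 16 in HU cells, beside 0.0% of 12649. At an unadjusted p below 0.05 there were 0 members and 111 and 487 genes, and DESeq2 called 0 members. The smallest of these p was that of H2BC12 in HU cells, -0.37 ± 0.18 with an unadjusted p of 0.056 in edgeR.

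Polysomal and total RNA differed for many histone genes within each condition, as they did for most genes. In siCTRL NT cells 7 of the 15 tested members were lower in polysomal RNA, beside 32.3% of the 12431 genes tested, and 0 were higher, beside 31.4%. In siCTRL HU cells 7 were lower and 3 higher, beside 37.4% and 36.2% of 12479 genes. In siLSM14A NT cells 8 were lower and 2 higher, beside 32.3% and 32.1% of 12528 genes, and in siLSM14A HU cells 8 were lower and 1 higher, beside 34.1% and 32.8% of 12377. The median of the members was -0.53, -0.48, -0.46 and -0.53 in these conditions, against -0.03, -0.05, -0.03 and -0.04 over all genes tested. With exonic GC content and length corrected, the members' median was -0.22, -0.22 and -0.24 in siCTRL NT, siCTRL HU and siLSM14A HU cells and -0.34 in siLSM14A NT cells. In siLSM14A NT cells it differed from the uncorrected value by less than the median SE of the members. With GC content alone corrected the 4 medians ran from -0.47 to -0.41. Leaving out single replicates lowered the counts to 2 in siCTRL NT (without replicate 2), 5 in siCTRL HU (without replicate 2), 2 in siLSM14A NT (without replicate 3) and 3 in siLSM14A HU cells (without replicate 1).

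H4C16, the H4 gene on chromosome 12, stood furthest below. It had 2.11, 1.17 and 1.06 CPM in total and 0.201, 0.376 and 0.109 CPM in polysomal RNA of siCTRL NT cells, with no overlap. The log2 ratio was -2.60 ± 0.45 in the edgeR fit (adjusted p = 0.00157), which puts its scaled polysomal level at 16.6% of its scaled total RNA level. The fractions were sequenced and scaled as separate libraries, so this value is relative to other genes. It is not the share of H4C16 mRNA found on polysomes. In siCTRL HU, siLSM14A NT and siLSM14A HU cells the log2 ratio was -2.52 ± 0.38, -2.31 ± 0.48 and -2.36 ± 0.28. The polysomal libraries held 3 to 15 counts of it.

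H2BC4, an H2B gene whose annotated span overlaps HFE, had 2.18, 1.70 and 2.27 CPM in total and 0.778, 0.347 and 0.981 CPM in polysomal RNA of siCTRL NT cells. Its log2 ratio ran from -1.84 to -1.27 over the 4 conditions, and of its exons 30.9% overlap genes on the opposite strand. H2AC11 had 5.30, 7.48 and 6.31 CPM in total and 3.06, 2.86 and 3.89 CPM in polysomal RNA of siCTRL NT cells, and its log2 ratio ran from -1.14 to -0.97. H2AC13, with 0.874 ± 0.319 and 0.410 ± 0.148 CPM there (SD, n = 3), ran from -1.65 to -1.08. These 4 genes and H2BC5, with log2 ratios of -0.58 to -0.55, were called lower in all 4 conditions. The share of all tested genes called lower in all 4 was not counted. The number of such members is therefore not read as a trait of histone genes. H2BC5 was still called in 3 conditions with GC content corrected (-0.47 to -0.41), and in none with GC content and length corrected (-0.34 to -0.19).

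H2BC15 and H4C8 were called lower in 3 conditions, H2BC11 in 2, and H2BC12 and H2BC21 in 1 each. With GC content corrected H2BC15 was called in none (-0.18 to 0.04) and H4C8 in 1 (-0.63 to -0.17), whereas H2BC11 was called lower in 3 and H2BC12 in 4. Without that correction H2BC12, the most abundant, was close to even, with ratios of -0.28 to 0.10. H2AC6 (-0.14 to 0.05) and H3C4 (0.15 to 0.58) were called in none, but H2AC6 was called higher in 3 conditions with GC content corrected (0.30 to 0.64) and in 4 with GC content and length corrected (0.38 to 0.66).

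3 members stood above 0 in all 4 conditions and were called higher in some of them. H1-2 was called in 3 (0.24 to 0.50), H2AC25 in 2 (0.15 to 0.47) and H2AC20 in 1 (0.37 to 1.00). In siCTRL HU cells H2AC20 had 0.680, 0.665 and 0.752 CPM in total and 0.941, 1.70 and 1.56 CPM in polysomal RNA, and the groups did not overlap.

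The lower ratios of H4C16, H2BC4, H2AC11 and H2AC13 were called in every condition also with GC content corrected and with GC content and length corrected. For H2AC13 they rest on 3 to 22 counts in the polysomal libraries, and only 41.2% of its windows are unique. The higher ratios were not kept. H2AC25 and H2AC20 were called in no condition with GC content corrected. For H1-2, with GC content corrected the ratio ran from -0.32 to -0.10 and was called lower in 1 condition. H2BC12 went to -0.87 to -0.70 under that correction. The sign for H1-2 thus changed in all 4 conditions when GC content was corrected. Without that correction H2BC12 was already below 0 in 3 of 4 conditions, and H2AC6 was below 0 in 1 of 4. With GC content and length corrected, H1-2 ran from -0.02 to 0.13 and was called in none. H2BC12 then ran from -0.40 to -0.24 and was called lower in 3. Exonic GC content is 56.4% in H1-2 and 58.2% in H2BC12, and 41.97% in H2AC6.

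**Figure D4:**
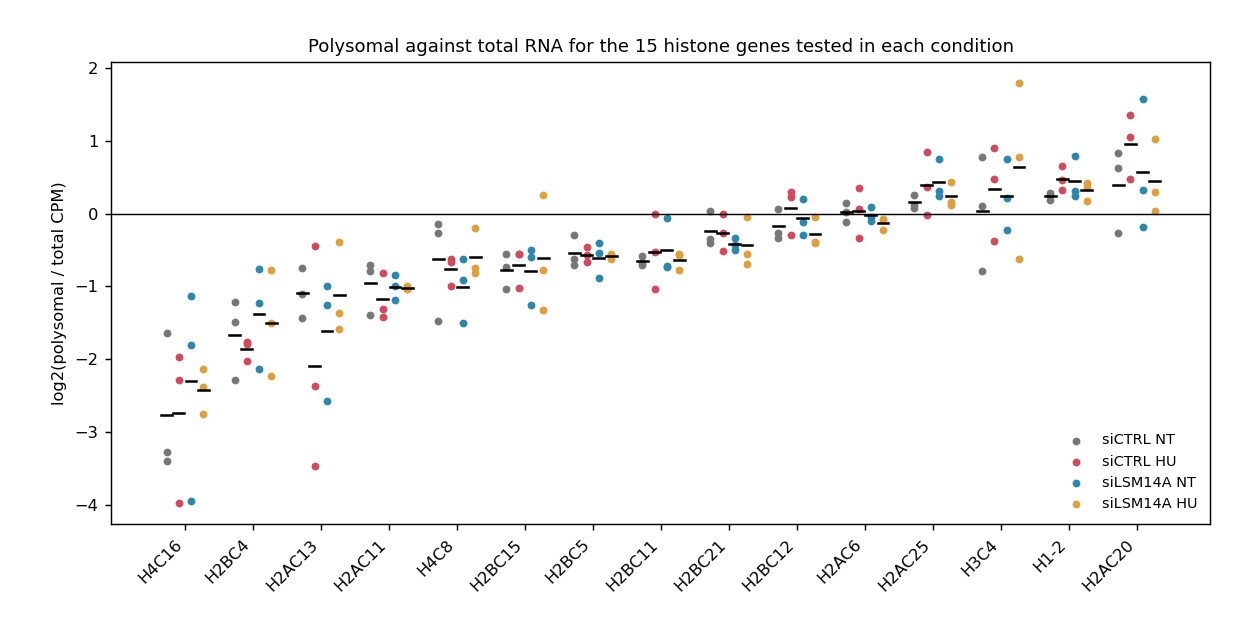
log2 ratio of polysomal to total CPM for the 15 histone genes tested in every condition; each point is 1 replicate pair of libraries and each bar the mean of 3. The points of H4C16 reach from -3.98 to -1.13, those of H2AC6 and H2BC12 lie around 0, and in most genes the conditions overlap, while for H1-2 the siCTRL HU points lie above the siCTRL NT points.

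H2A and H2B genes that share a promoter region and are transcribed in opposite directions are set side by side. H2AC11 and H2BC11, neighbours on chromosome 6, ran from -1.14 to -0.97 and from -0.66 to -0.46, and H2AC6 and H2BC4 from -0.14 to 0.05 and from -1.84 to -1.27. H2AC20 and H2BC21, neighbours on chromosome 1, lay at 0.37 to 1.00 and at -0.47 to -0.24. The differences within pairs were not tested.

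The genes that make, carry and degrade histone mRNAs were taken from lists made for this purpose and read in the same tests. On HU in total RNA, 0 of 6 tested genes of histone gene transcription were called under either siRNA, 0 of 12 of 3′ end processing, 0 of 5 of histone mRNA translation and 0 of 9 of decay. SLBP changed by 0.00 (-0.16 to 0.15) in siCTRL cells and by -0.04 (-0.16 to 0.08) in siLSM14A cells. NPAT, the coactivator of histone gene transcription, was at -0.04 ± 0.07 and -0.16 ± 0.07, the latter with an unadjusted p of 0.028 (adjusted p = 0.855 in edgeR). In siCTRL cells the smallest p of each list were those of POU2F1 (-0.10 ± 0.08), the cap-binding NCBP1 (-0.07 ± 0.07), MIF4GD, a partner of SLBP in translation (-0.15 ± 0.08), and UPF1 (-0.06 ± 0.06). In siLSM14A cells they were NPAT, the scaffold protein SYMPK (0.14 ± 0.06), PABPC1 (0.08 ± 0.06) and the decapping enzyme DCP2 (-0.16 ± 0.07). None of these was called.

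In polysomal RNA on HU these lists had 0 calls under both siRNAs. On depletion of LSM14A they had 0 calls in total and polysomal RNA, and DCP2 came nearest, at 0.26 ± 0.06 in NT total RNA (edgeR adjusted p = 0.0884).

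The replacement histones, which are made outside S phase from polyadenylated mRNAs, included 1 gene above H2BC12 among those named here and 1, MACROH2A2, with too few counts to be tested. In siCTRL NT total RNA H2AZ1 stood at 305 CPM per kb of exon, H3-3B at 71.1, H2AX, whose mRNA can end at a stem-loop too, at 63.6 and H3-3A at 36.0. H2BC12 was at 97.9 CPM per kb over the total RNA libraries. The other 7 replacement histones ran from 0.00879 (MACROH2A2) to 32.5 CPM per kb (H1-10). On HU 0 of 10 tested replacement histones were called in total or polysomal RNA under either siRNA. The smallest p in total RNA were those of H1-10 in siCTRL cells (0.13 ± 0.08) and of H3-3A in siLSM14A cells (0.10 ± 0.06). H2AX had 101 ± 7.57 CPM in NT and 98.9 ± 1.27 CPM in HU cells with siCTRL.

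Between fractions 4 of 10 replacement histones were higher in polysomal RNA of siCTRL NT cells, beside 31.4% of all genes tested, H1-10 (0.72 ± 0.11), H2AJ (0.62 ± 0.11), MACROH2A1 (0.55 ± 0.10) and H2AX (0.38 ± 0.13), and 3 were lower, beside 32.3%, CENPA (-0.66 ± 0.13), H2AZ2 (-0.63 ± 0.11) and H3-3A (-0.32 ± 0.11). These shares are near the background. The median was -0.09. In the other conditions 4 were higher in each.

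Histone chaperones and S phase genes likewise had 0 calls on HU, of 12 and 15 tested, in total and in polysomal RNA. The smallest p in total RNA were those of the chaperone ASF1A (0.13 ± 0.07) and the proliferation marker MKI67 (-0.11 ± 0.10) in siCTRL cells, and of HAT1 (-0.18 ± 0.09) and MCM3 (0.08 ± 0.05) in siLSM14A cells. In polysomal against total RNA 11, 10, 12 and 11 of the 15 S phase genes were higher in siCTRL NT, siCTRL HU, siLSM14A NT and siLSM14A HU cells and 0 lower, where 31.4%, 36.2%, 32.1% and 32.8% of all genes tested were higher. The histone genes had 0, 3, 2 and 1 of 15 higher and 7, 7, 8 and 8 lower. In siCTRL NT cells the S phase genes called were the helicase subunits MCM2, MCM3, MCM4, MCM5, MCM6 and MCM7 (0.49 to 1.67), CDT1, CDC6, E2F1 and the ribonucleotide reductase subunits RRM1 and RRM2, and PCNA was called in siLSM14A NT cells.

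The lists around histone mRNA held calls in both directions between fractions. In siCTRL NT cells 6 of the 9 decay genes were lower in polysomal RNA, beside 32.3% of all genes tested, and 1 was higher, beside 31.4%. The lower ones were PNRC2 (-1.69 ± 0.23), the uridylyltransferases TUT4 (-1.19 ± 0.34) and TUT7 (-1.05 ± 0.34), DCP2 (-0.98 ± 0.17), LSM1 (-0.57 ± 0.10) and the exonuclease ERI1 (-0.49 ± 0.14), and the higher one was UPF1 (1.63 ± 0.12). Of 6 transcription genes NPAT (-0.92 ± 0.34), POU2F1 and the cyclin gene CCNE2 were lower and CCNE1 and HINFP higher. Of 12 processing genes SNRPB, SYMPK, CSTF2 and SRRT were higher (0.69 to 1.23) and ZNF473 and SNRPD3 lower, and SLBP was at -0.12 ± 0.10. Of 5 translation genes EIF4G1 and MIF4GD were higher and PABPC1 and EIF4E lower. Of 12 chaperone genes ASF1B, CHAF1B, RBBP7, HIRA and DAXX were higher and ASF1A and NAP1L1 lower. CPSF2, CPSF3, CTIF, EXOSC10, HAT1 and CHAF1A were called in other conditions only.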

How the data were processed

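The authors selected poly(A)+ RNA, made strand-specific libraries, trimmed reads, aligned them to hg19 with STAR 2.6.1a (version per the submitters' processing notes) and took gene counts from STAR with a Gencode annotation. The deposited values are raw counts per Ensembl gene, not normalised. Whether counting used strand is not given in the sources used here. Of 20345 identifiers 19637 matched the annotation used here (GENCODE on hg19), 19086 of them protein-coding. Libraries were grouped by their titles.

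Counts were tested with the edgeR 4.0.16 quasi-likelihood F-test (R 4.3.3; TMM; filterByExpr with a minimum count of 10 and total of 15) on the libraries compared, with Benjamini-Hochberg adjustment over all protein-coding genes tested and a threshold of 0.05. The study's own tool for translation, Xtail, was not run here, and a fraction by condition interaction took its place. Intervals are the log2 change with its SE and the t quantile for 95%. Levels are CPM on TMM-scaled library sizes over the 24 libraries, and per kb of merged exons between genes. Replicates differed beyond sampling noise (chi-square per gene 6.2 to 125), so none was counted as a duplicate. Alternatives were DESeq2 1.42.0, RLE size factors, other filters, all genes or all libraries in 1 fit, blocks, GC and length correction and leaving out each replicate.

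Same-numbered libraries deviated together (all 3 correlations over 0.1) in siCTRL HU against NT, in total RNA (0.18 to 0.25) and polysomal RNA (0.16 to 0.42), and in siLSM14A against siCTRL with HU in total RNA (0.17 to 0.31), and between the fractions of siLSM14A HU cells (0.14 to 0.21). Named genes were LSM14A, the 8 members highest per kb, the top member of each histone type, in each HU comparison the 2 members of smallest p in each direction, every called member, members at 0, called list genes and the list gene of smallest p in the HU comparisons of total RNA; SLBP, some neighbours and some replacement histones were named beyond this rule. The members and lists were chosen with earlier results of these data known.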

Additional observations from a re-analysis of the deposited data

How the results depend on the processing

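The 15 counts of members called for HU, depletion or their difference were 0 under every alternative run, except that 1 was called by DESeq2 for depletion in NT total RNA (H2AC25) and 1 with the replicate block for depletion in HU total RNA (H2BC12). Between polysomal and total RNA the count moved by more than 1.5 times from 10 to 5 in siCTRL HU cells with GC and length correction. With the replicate block it was 7, 10, 7 and 10 in siCTRL NT, siCTRL HU, siLSM14A NT and siLSM14A HU cells, against 7, 10, 10 and 9 without it, and the block changed no other count. Leaving out 1 replicate gave 2 to 7 calls in siCTRL NT (2 without replicate 2), 5 to 8 in siCTRL HU (5 without replicate 2), 2 to 7 in siLSM14A NT (5 without replicate 2, 2 without replicate 3) and 3 to 9 in siLSM14A HU (3 without replicate 1), with fewer samples in each fit. The members' median moved by more than the median SE of the members in siCTRL NT without a filter (-0.21) and without replicate 3 (-0.19), and in siCTRL HU with 10 counts required in every library (-0.27). Signs of called ratios reversed under GC correction, and under GC correction with the replicate block: H1-2 went to -0.32 and -0.32 in siCTRL NT, -0.21 and -0.21 in siCTRL HU, -0.10 and -0.11 in siLSM14A NT and -0.19 and -0.19 in siLSM14A HU, H2BC12 to -0.70 and -0.71 and H2BC15 to 0.041 and 0.025 in siCTRL HU. H2BC15 went to 0.022 in siCTRL HU with GC and length correction, and H2AC6 in siLSM14A HU to 0.30 under GC correction with the replicate block and 0.38 with GC and length correction. The cause was not tested. Of 4897 values of single members under alternatives, these 15 reversed, 83 lost and 26 gained a call, and 360 more changed sign without a call in either fit. Members with few counts limit the result: 14 of the 32 were never tested, and after poly(A) selection the share of tailed and untailed mRNA behind the counts was not tested.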

Other observations

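Of the 7 genes that are not members but have a stem-loop match after the stop codon, PRMT2 had 102 ± 0.716 CPM in siCTRL NT and 102 ± 6.08 CPM in siCTRL HU total RNA, and BTBD10 22.99 ± 1.10 and 21.7 ± 0.302 CPM (SD, n = 3). HIST1H4B and HIST2H2AA3 are listed in the annotation under these older names, which RefSeq gives as synonyms of H4C2 and H2AC18. Those current symbols fit the rule, but the match used the annotated names, so both genes were left out of the members. Both stood under 0.1 CPM on average in every condition of total RNA. H3-4 was at 0 in all total RNA libraries and H1-6 close to it.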
